A study of Homo sapiens with 6 samples.

Results

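SH-SY5Y is an established human neuroblastoma cell line, a neuroblast-like subline of SK-N-SH, and the baseline transcriptome of these cells was described from the 3 control arrays of a study of 6 arrays. The 3 arrays were chosen by their titles, which name an anti-miR negative control, and no comparison with the 3 anti-miR-137 arrays was made. All cells were grown in DMEM/F12 with 10% FBS. The control cells received Anti-miR Negative Control #1 (15 pM, with Lipofectamine RNAiMAX) 24 hours after seeding, and the other cells the same dose of anti-miR-137. RNA was taken 72 hours after transfection, and 100 ng were amplified and labelled for 1-colour arrays. RNA integrity numbers of the control samples were 9.7, 9.8 and 9.7. The values describe lipid-transfected cells of a single tumour-derived line, not untreated cells and not a normal tissue. The labels number the replicates without saying whether they came from separate cultures, so every SD and p-value describes how far these arrays differed, perhaps for technical reasons, and the number of arrays limits the precision.

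Neuroblastoma arises from the sympathetic branch of the neural crest, the embryonic cell population that also forms Schwann cells, sensory neurons and much of the facial skeleton. A small network of transcription factors, among them PHOX2A, HAND2, GATA2, GATA3, ISL1 and TFAP2B, directs crest cells to become noradrenergic neuroblasts. Such cells make noradrenaline from tyrosine in a chain of enzymes and store it with granin proteins and peptides in dense-core vesicles. Neuroblastoma cells are known in this noradrenergic state and in a mesenchymal state marked by genes such as PRRX1, FN1 and CD44. SH-SY5Y is known to lack MYCN amplification and to carry an activating mutation of ALK, a receptor tyrosine kinase.

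The probe set with the highest mean over the 3 control arrays stood for its gene, which gave 18244 genes. Levels are log2 RMA values, and the array values of a gene are given in the order of replicates 1, 2 and 3. A background level was set from 486 genes of families not known to be made in neurons or neural crest: 334 olfactory receptors, 25 taste receptors, 83 keratin-associated proteins, 26 beta-defensins and 18 late cornified envelope genes. The 95th percentile of these reference genes was 7.16 (7.25, 7.09 and 7.06 in the separate arrays), and genes with a mean at or below it are called background. Genes from the 75th percentile of all genes upward, a mean of 9.35, are called bright, and those between the cutoffs moderate. By this rule 4561 genes were bright (25%), 4936 moderate (27.1%) and 8747 at background (47.9%). The class rests on the mean alone. A limma test of each gene's values against the same array's background cutoff (Benjamini-Hochberg adjusted p under 0.05 over all 18244 genes) called 9166 genes above it (50.2%) and 8310 below it (45.5%), and 768 were not called either way. Probes of different genes bind with different strength, so a higher signal of one gene than another does not give an order of transcript number, and genes are described by class.

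**Figure D1:**
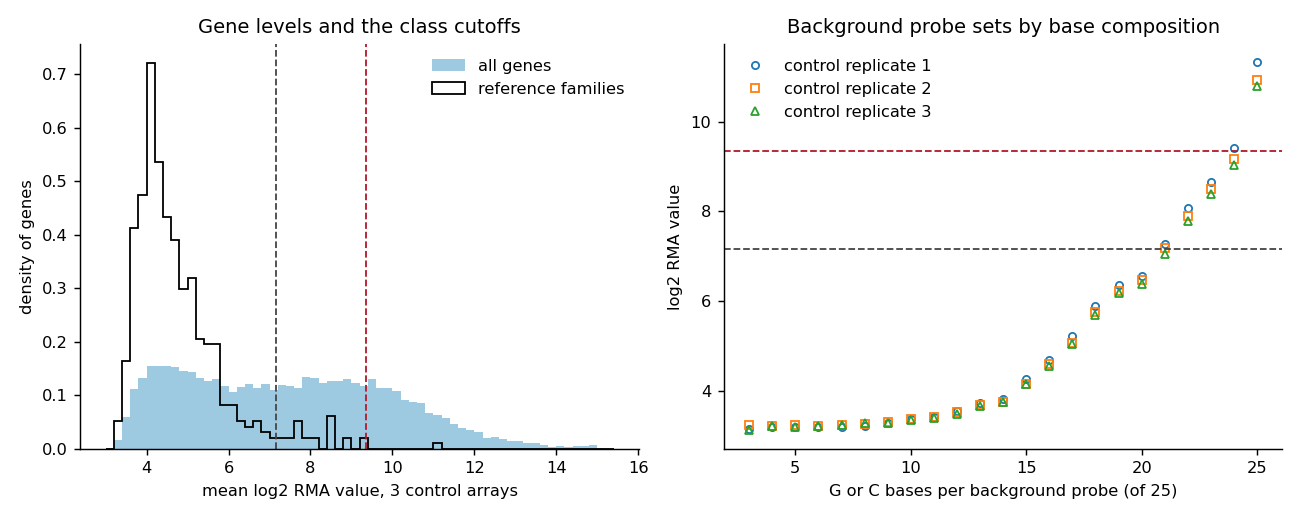
Left, the density of mean log2 RMA values over the 3 control arrays for all 18244 genes (filled) and the 486 reference genes (line). Right, the log2 RMA value of the 23 background probe sets of the array in each control array against the number of G or C bases in their 25-base probes. Grey and red dashed lines mark the background cutoff (7.16) and the bright cutoff (9.35), and the 5 background probe sets with the most G and C bases have means above the grey line, with 1 array of the lowest of them just under it.

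The arrays agreed closely. Across genes, Pearson's r between pairs of arrays was 0.996 to 0.998, which describes these libraries and not independent replicates, since genes are not replicates. The median SD of a gene over the 3 arrays was 0.10, and 17202 genes (94.3%) kept their class in all 3 arrays by each array's own cutoffs. The control probe sets of GAPDH differed between the 3′ and 5′ ends by 0.21 to 0.23 and those of ACTB by 1.69 to 1.81. Signal without a target depends on base composition. The array's 23 background probe sets rose with the number of G and C bases in their probes, and 5 of them, with 21 or more of 25, had means above the background cutoff. The probe set with 25 such bases had a mean of 11.01, above the bright cutoff. Moderate and bright values of genes with probes of this kind can therefore overlap with background, and the part of base composition in any single gene was not tested. The reference families differed among themselves: 4 of 334 olfactory receptors but 17 of 83 keratin-associated proteins lay above the cutoff, one of them bright (KRTAP6-1, 11.14).

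The labelled cell type was checked with defining markers of sympathetic neuroblasts. DBH, the enzyme that makes noradrenaline from dopamine, read 12.68, 12.87 and 12.72. CHGA, the dense-core vesicle protein chromogranin A, read 14.43, 14.52 and 14.52. STMN2, a tubulin-binding protein of growing neurites, read 13.95, 13.95 and 13.91. All these values were bright in each array, with SDs of 0.10, 0.05 and 0.02 (n = 3). HAND2, ISL1, GATA3 and PHOX2A were bright as well, and TH was moderate. The 8 sympathetic markers analysed were thus all above background. In RNA of a whole culture, few cells with much of a transcript and many cells with little of it cannot be told apart.

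Promoters of dense-core vesicle genes are shown because the cyclic AMP response element, TGACGTCA, is a known control sequence of several of them. The sequences are those of the RefSeq promoter table (build GRCh38.p14), from 250 bases before to 50 bases after the gene start, 5′ to 3′ on the gene's strand, with TGACGTCA in capitals. DBH, the noradrenaline enzyme, is shown as a promoter whose window does not hold these exact letters, and SST, somatostatin, as a promoter that holds them in a gene at background. The DBH window does hold tgacgtcc, which differs from the element in the last letter only and was not counted as a match.
DBH (chr9:133636113-133636412, + strand): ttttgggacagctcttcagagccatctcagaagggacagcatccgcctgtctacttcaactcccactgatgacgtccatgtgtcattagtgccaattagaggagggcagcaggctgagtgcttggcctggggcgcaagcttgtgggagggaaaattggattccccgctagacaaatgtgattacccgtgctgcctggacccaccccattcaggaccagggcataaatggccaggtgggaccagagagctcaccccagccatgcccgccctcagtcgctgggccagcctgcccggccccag
CHGA (chr14:92922900-92923199, + strand): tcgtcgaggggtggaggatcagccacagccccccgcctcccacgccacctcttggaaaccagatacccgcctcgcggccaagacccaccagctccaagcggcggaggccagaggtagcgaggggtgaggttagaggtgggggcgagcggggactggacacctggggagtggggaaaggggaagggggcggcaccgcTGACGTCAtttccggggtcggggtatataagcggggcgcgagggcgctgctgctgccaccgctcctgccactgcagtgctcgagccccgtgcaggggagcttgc
VGF (chr7:101165520-101165819, - strand): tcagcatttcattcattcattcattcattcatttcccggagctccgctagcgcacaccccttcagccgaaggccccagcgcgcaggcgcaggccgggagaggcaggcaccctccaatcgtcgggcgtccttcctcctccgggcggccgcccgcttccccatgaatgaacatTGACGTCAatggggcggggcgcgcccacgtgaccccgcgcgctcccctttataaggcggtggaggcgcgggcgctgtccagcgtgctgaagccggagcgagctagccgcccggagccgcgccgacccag
CARTPT (chr5:71719025-71719324, + strand): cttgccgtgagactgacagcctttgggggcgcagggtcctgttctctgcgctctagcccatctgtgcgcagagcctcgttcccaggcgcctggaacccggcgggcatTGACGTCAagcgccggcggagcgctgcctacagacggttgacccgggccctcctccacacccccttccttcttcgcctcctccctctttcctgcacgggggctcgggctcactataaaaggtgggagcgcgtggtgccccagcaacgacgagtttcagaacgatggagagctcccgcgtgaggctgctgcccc
SST (chr3:187670345-187670644, - strand): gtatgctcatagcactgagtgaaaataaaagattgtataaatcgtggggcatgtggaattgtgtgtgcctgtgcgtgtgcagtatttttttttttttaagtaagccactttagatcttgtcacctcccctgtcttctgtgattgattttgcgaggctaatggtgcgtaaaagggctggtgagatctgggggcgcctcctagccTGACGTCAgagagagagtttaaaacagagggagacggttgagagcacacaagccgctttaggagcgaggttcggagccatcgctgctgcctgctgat

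The element began 54 bases before the start in CHGA, 79 in VGF, 143 in CARTPT and 47 in SST. CHGA and VGF, a granin-like vesicle protein, were bright in every array (VGF 11.59, 11.59 and 11.94). CARTPT, the precursor of CART peptides, was bright by its mean and the arrays differed widely (8.62, 9.76 and 9.88). SST read 3.89, 3.67 and 3.63, at background in each array, with the same letters in its window. Over the granin and neuropeptide lists, 4 of 25 genes with a promoter in the table (16%) held TGACGTCA on either strand, against 2.63% of the 14494 genes analysed and 1.98% of all 27305 promoters in the table. The shares over all genes by class were 3.95% of bright, 3.31% of moderate and 1.41% of background promoters. A match is a description of the letters and not a site, and where a gene had several promoters the first in the table was used.

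Most transcription factors of the noradrenergic network were bright. Of 28 analysed, 20 were bright (71.4%, where 25% of all genes were), 6 moderate and 2 at background. The limma test called 26 above and 2 below the cutoff, against 50.2% and 45.5% of all genes. The list's median level was 10.73, against 7.34 over all genes. HAND2, a basic helix-loop-helix factor of sympathetic precursors, read 13.94, 14.03 and 13.97. GATA2 read 13.39, 13.45 and 13.46 and its relative GATA3 11.39, 11.36 and 11.24; both zinc-finger factors act downstream in noradrenergic differentiation. TFAP2B, a factor of the AP-2 family, read 13.06, 12.94 and 12.98. ISL1, a LIM homeodomain factor of sympathetic and sensory neurons, read 12.88, 12.93 and 12.69. These 5 genes lay far above the bright cutoff in all 3 arrays. PHOX2A, a homeodomain factor that activates DBH, read 10.62, 10.83 and 10.58, and all of these arrays were bright.

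SOX4 (12.88 ± 0.10, mean ± SD, n = 3 here and below) and SOX11 (10.79 ± 0.03), SOX factors of immature neurons, were both bright. MEIS2 (11.67 ± 0.05) and PBX3 (11.45 ± 0.03), homeodomain partners of HOX proteins, were bright too. INSM2 was bright (11.29, 11.78 and 11.45), whereas INSM1, a related zinc-finger factor of neuroendocrine differentiation, lay at background (5.11 ± 0.17). LMO1, a transcriptional cofactor whose gene is a neuroblastoma risk locus, read 9.79, 9.97 and 9.78, and LMO4 of the same family was at background (4.94 ± 0.26). HAND1 (8.74 ± 0.20), TLX2 (8.24 ± 0.21), ZNF536 (8.47 ± 0.12), SIX3 (8.12 ± 0.10), TBX2 (8.96 ± 0.12) and PROX1 (9.17 ± 0.13) were moderate in each array. CUX2 lay at the bright cutoff and passed it in 1 array, and LMO3 passed it in 2.

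**Figure D2:**
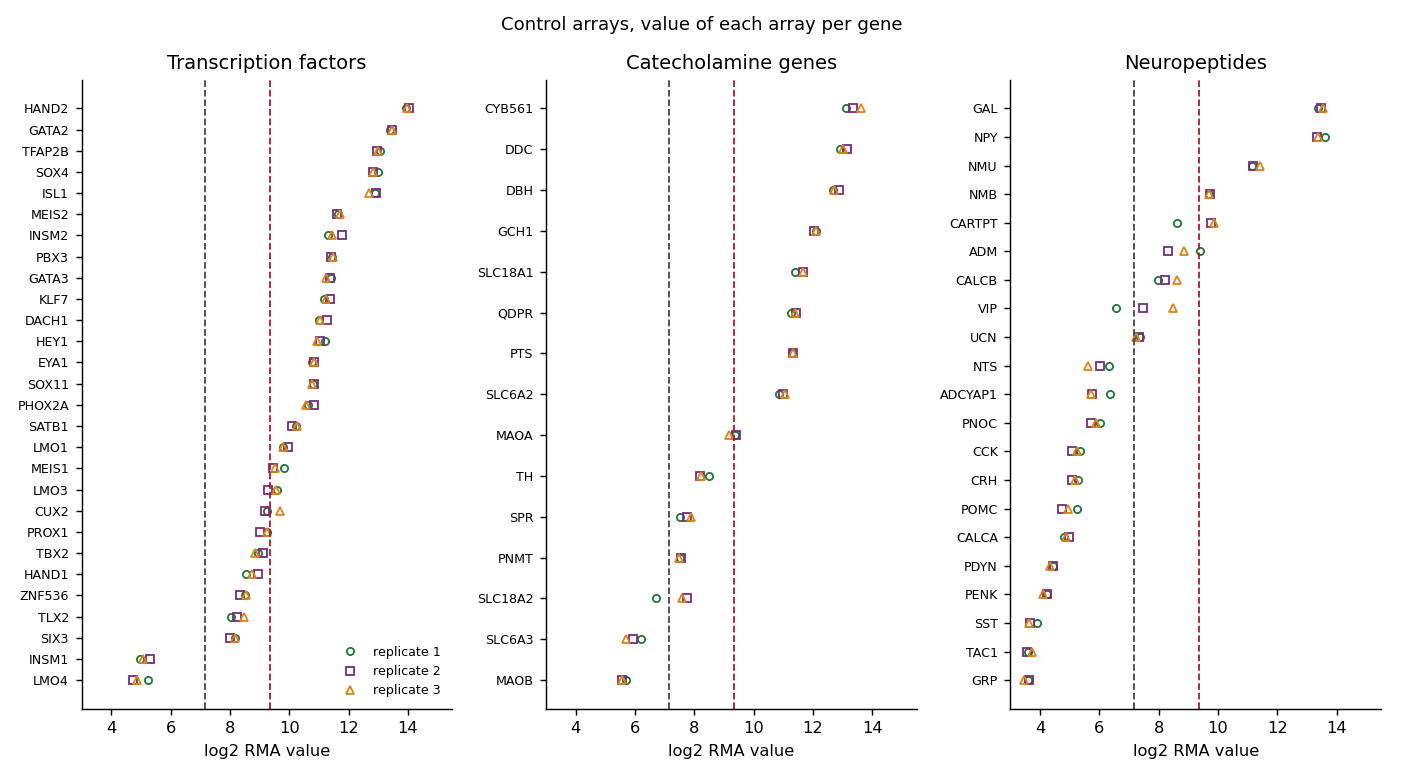
Log2 RMA value of each control array (symbols, replicates 1 to 3) for noradrenergic transcription factors, catecholamine genes and neuropeptides, with the background (grey, 7.16) and bright (red, 9.35) cutoffs. Most factors and catecholamine genes lie to the right of the red line, while 12 of 21 neuropeptides lie left of the grey line. The widest spreads are those of VIP, CARTPT, SLC18A2 and ADM.

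Genes of the noradrenaline pathway were mostly bright. Of 15 catecholamine genes, 8 were bright (53.3%, against 25% of all genes), 5 moderate and 2 at background. TH, tyrosine hydroxylase, which catalyses the first and rate-limiting step, was moderate at 8.49, 8.19 and 8.22; its margin over the background cutoff was 1.17 (95% interval 0.99 to 1.35, limma adjusted p = 4.98e-14). It had 3 probe sets, the others at 5.59 to 7.18. DDC, which makes dopamine from L-DOPA, read 12.91, 13.15 and 13.02. CYB561, the vesicle cytochrome that supplies electrons to DBH, read 13.11, 13.34 and 13.61. GCH1, PTS and QDPR, which make and regenerate the tetrahydrobiopterin cofactor of TH, were bright (12.08 ± 0.04, 11.32 ± 0.03 and 11.37 ± 0.10), and SPR of the same route was moderate (7.73 ± 0.19).

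Transporters separated by type. SLC18A1, the vesicular monoamine transporter of chromaffin cells, was bright in each array (11.38, 11.65 and 11.66). SLC18A2, its neuronal counterpart, read 6.70, 7.76 and 7.59; it was moderate in 2 arrays and at background in replicate 1, and limma did not call it (adjusted p = 0.107), though without replicate 1 it was called above the cutoff (adjusted p = 5.67e-05). SLC6A2, the noradrenaline reuptake transporter, was bright in each array (10.98 ± 0.10), and SLC6A3, the dopamine transporter, was at background (5.94 ± 0.25). PNMT, which makes adrenaline from noradrenaline, read 7.51, 7.54 and 7.50, near the cutoff in every array and called above it. Of the degrading enzymes, MAOA lay just under the bright cutoff (9.31 ± 0.11) and MAOB at background (5.61 ± 0.08).

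Granins and their processing machinery were bright in 9 of 12 genes (75%, against 25% of all genes). CHGB, chromogranin B, read 13.82, 13.89 and 13.55. SCG2, SCG3 and SCG5, further secretory granule proteins, had means of 10.71 ± 0.23, 9.93 ± 0.17 and 10.55 ± 0.38. CPE and PAM, which trim and amidate peptide precursors, were bright (11.13 ± 0.06 and 12.10 ± 0.09). PCSK1N (8.10 ± 0.05) and PTPRN (7.94 ± 0.16) were moderate, and CADPS, a priming factor for vesicle release, was at background (5.79 ± 0.06).

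Of 21 neuropeptide genes, 5 were bright (23.8%), 4 moderate and 12 at background, shares near those of all genes. GAL, galanin, read 13.38, 13.49 and 13.56. NPY, neuropeptide Y, the co-transmitter of sympathetic neurons, read 13.60, 13.33 and 13.38. Both were bright in all arrays, as were NMU, neuromedin U (11.15, 11.17 and 11.40), and NMB, neuromedin B (9.69, 9.72 and 9.70). VIP, a peptide of cholinergic autonomic neurons, read 6.57, 7.48 and 8.50, at background in replicate 1 and moderate in the others (limma adjusted p = 0.0425). Without replicate 3 VIP was not called, with a margin of -0.14 (limma adjusted p = 0.238). ADM, adrenomedullin, read 9.41, 8.32 and 8.84 and was highest in replicate 1. The background members included PENK, PDYN and POMC, precursors of opioid and melanocortin peptides (means of 4.18, 4.42 and 4.97), and CCK, CRH, TAC1 and SST.

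Neuronal structure was broadly represented: 23 of 32 genes were bright (71.9%, against 25% of all genes), 7 moderate and 2 at background. UCHL1, a neuronal ubiquitin hydrolase, read 13.33, 13.38 and 13.54, and STMN1, a stathmin of proliferating cells, 13.62, 13.79 and 13.93. TUBB3 and TUBB2B, neuronal beta-tubulins, had means of 12.03 ± 0.05 and 11.97 ± 0.09. The RNA-binding proteins ELAVL4 and ELAVL3 (12.03 ± 0.20 and 11.68 ± 0.18) and the growth cone protein GAP43 (10.40 ± 0.26) were bright, and so was DCX, doublecortin of migrating neurons (9.65 ± 0.01). Neurofilaments differed in class: NEFL was bright (11.66, 11.80 and 12.27), NEFM moderate by its mean with 1 bright array (8.39, 8.91 and 9.72), and NEFH moderate (7.31, 7.38 and 7.91). All 3 neurofilaments had the lowest value in replicate 1 and the highest in replicate 3, as did 2278 of all 9497 genes above background (24.0%). RBFOX3, the mature neuron antigen NeuN, was at background (6.45 ± 0.16). So was VAMP2 (6.28 ± 0.08), a vesicle fusion protein.

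Lists differed in how many members were lowest in replicate 1. Of the 30 neuronal structure genes above background, 23 (76.7%) had their lowest value there, while 3724 of all 9497 genes above background (39.2%) did. The counts were 9 of 13 for catecholamine genes, 7 of 11 for granins and 6 of 9 for neuropeptides above background. They were lower for the noradrenergic factors (8 of 26, 30.8%), the mesenchymal genes (23.1%) and the growth factor receptors (25%). High shares were not particular to neuronal and vesicle genes. Those of E2F genes, surface antigens and cell maintenance genes were 75%, 61.5% and 50%, and those of ligands and retinoid genes 11.1% and 12.5%. Replicate 1 also had the highest background cutoff (7.25) and the highest signal of the background probe set richest in G and C (11.32, 10.92 and 10.80 in the 3 arrays), and the part of these in the differences was not tested.

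**Figure D3:**
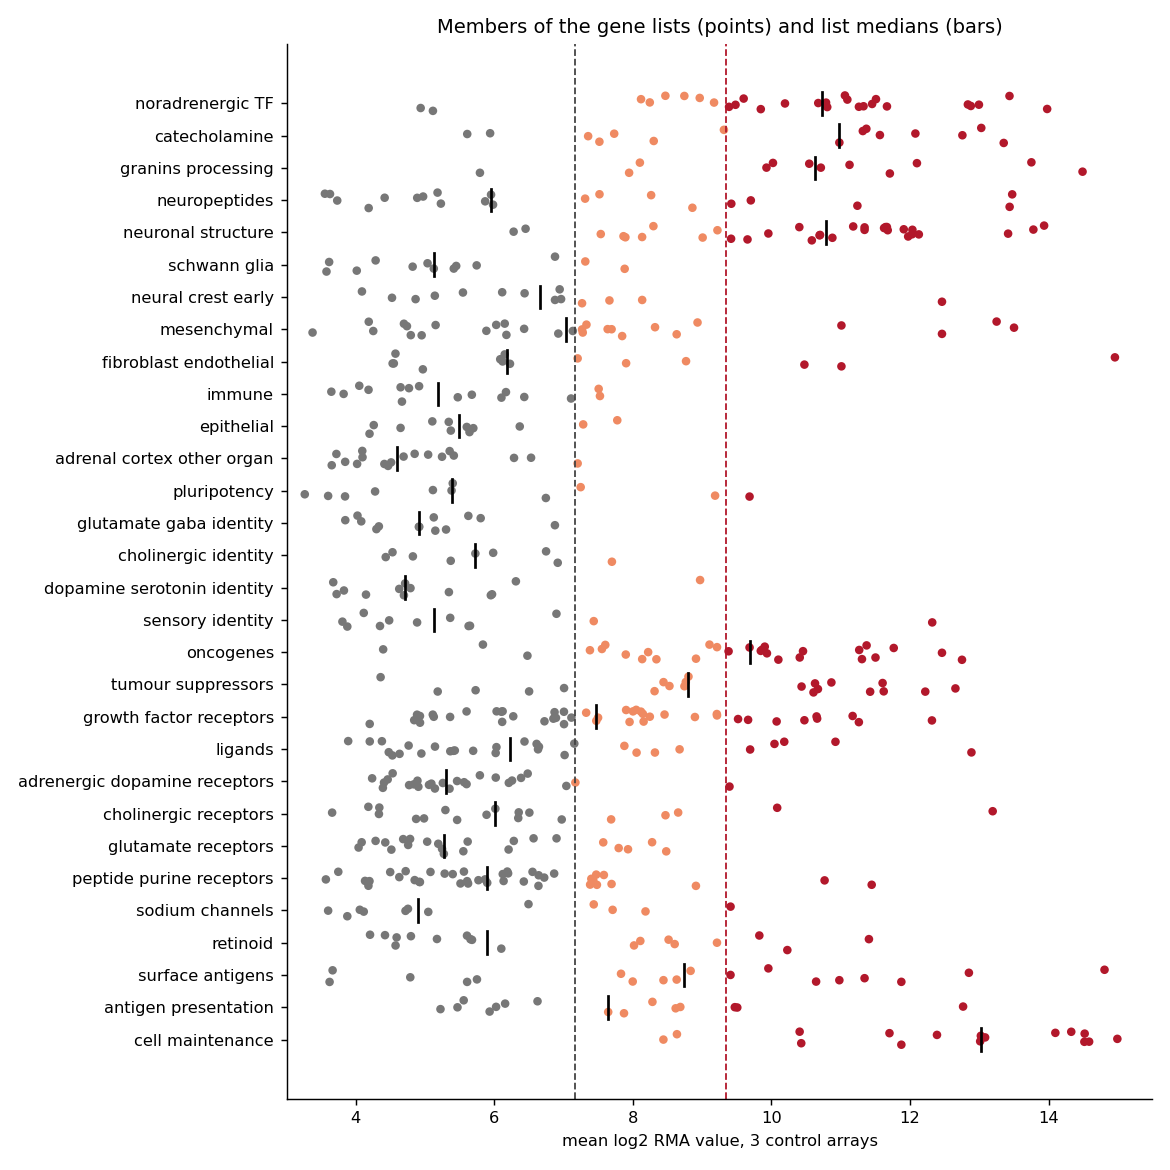
Mean log2 RMA value over the 3 control arrays of each member of 30 gene lists (points; grey background, orange moderate, red bright) with the list median (black bars). Dashed lines mark the background cutoff (7.16) and the bright cutoff (9.35). Medians of the noradrenergic factor, catecholamine, granin and neuronal structure lists lie right of the red line, and those of the glial, immune, epithelial and other-organ lists left of the grey line.

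Glial and other lineages were mostly at background, where 47.9% of all genes lay. Of 13 Schwann cell and glial genes, 11 were at background, 2 moderate and none bright (0). SOX10, the factor that defines Schwann cells and early crest, read 6.99, 6.83 and 6.81, called below the cutoff by limma (adjusted p = 0.00653) with a margin of -0.26. Without replicate 2 SOX10 was not called (limma adjusted p = 0.0699). S100B was moderate (7.90, 7.85 and 7.90) and called above it, and GFAP, an astrocyte filament protein, was moderate by its mean (7.31 ± 0.05) and not called. ERBB3, MBP, OLIG1 and AQP4 lay at background. Among early crest genes, TWIST1, a factor of crest migration, was bright (12.49, 12.37 and 12.52), SOX9 and ETS1 were moderate (7.66 ± 0.37 and 8.13 ± 0.29), SNAI2 was moderate by its mean and not called (7.27 ± 0.36), and 10 of 14 were at background. FOXD3 (4.09 ± 0.14), PAX3 (6.44 ± 0.12), PAX7 (4.86 ± 0.06) and TFAP2A (4.52 ± 0.15) were among these.

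Of 28 mesenchymal genes 4 were bright, 9 moderate and 15 at background; 46.4% lay above background, near the 52.1% of all genes. VIM, the intermediate filament vimentin, read 13.70, 13.49 and 13.31, and LGALS1, galectin 1, 13.24, 13.24 and 13.27. COL3A1, a fibrillar collagen, was bright (11.12, 11.01 and 10.90), but COL1A1 (6.15 ± 0.09) and COL1A2 (4.95 ± 0.22), the chains of the main bone and skin collagen, lay at background. FN1, fibronectin, was moderate (9.11, 8.77 and 8.91). The defining factor PRRX1 (5.26, 5.07 and 5.12) and the surface receptor CD44 (4.64, 4.90 and 4.67) lay at background in each array. YAP1 and WWTR1, co-activators of the Hippo pathway, were moderate (7.69 ± 0.26 and 7.84 ± 0.13), and NOTCH2 and NOTCH3 lay just above the cutoff (7.63 ± 0.13 and 7.33 ± 0.11).

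In the vascular and fibroblast list, RGS5, a G protein regulator best known from pericytes, read 14.91, 14.97 and 15.00, and PDGFRA, a receptor of platelet-derived growth factor, 10.69, 10.35 and 10.39. Both were bright in all arrays, while the endothelial markers PECAM1 (6.22 ± 0.12), VWF (6.08 ± 0.08) and CDH5 (4.53 ± 0.07) lay at background. Of 16 immune and blood genes, 14 were at background, PTPRC, the leukocyte antigen CD45, at 3.82 ± 0.05; the moderate members were TYROBP (7.52 ± 0.15) and HBB (7.51 ± 0.07). Of 12 epithelial genes, 10 were at background, among them CDH1 (4.20 ± 0.10) and EPCAM (5.34 ± 0.36), and MUC1 was moderate with 12 of its other probe sets at background. Of 18 genes of adrenal cortex and other organs, 17 were at background. They include NR5A1, the steroidogenic factor, at 5.04 ± 0.25, STAR at 5.24 ± 0.22 and CYP17A1 at 4.51 ± 0.15.

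Markers of other neuron types were also low. Of all genes, 47.9% lay at background and limma called 45.5% below the cutoff. All 13 genes of glutamatergic and GABAergic identity analysed, among them GAD1, GAD2, SLC17A6 and SLC17A7, were at background and called below the cutoff by limma, though EOMES was not without replicate 2 (adjusted p = 0.0558). CHAT, the acetylcholine-making enzyme, was moderate (7.67, 7.68 and 7.74), while SLC18A3, SLC5A7 and ACHE of the cholinergic list lay at background (6.75 ± 0.03, 5.98 ± 0.03 and 5.73 ± 0.18). Of 13 dopamine and serotonin identity genes, 12 were at background, with TPH2, SLC6A4 and PITX3 among them, and FEV, an ETS factor of serotonin neurons, was moderate (8.87, 8.92 and 9.12). In the sensory list 10 of 12 were at background. NEUROG2, a proneural factor of early sensory neurons, was bright, with its lowest value in replicate 3 (12.73, 12.44 and 11.79). SCN9A was moderate (7.43 ± 0.32). In the pluripotency and neural stem list, POU5F1, NANOG and LIN28A lay at background (5.38 ± 0.18, 3.84 ± 0.12 and 3.26 ± 0.08), NES, nestin, was moderate (9.19 ± 0.15), and SOX2 was not called either way (7.25 ± 0.07).

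Transcription factor families were counted over all their members on the array. Of all genes, 25% were bright and 52.1% lay above background. Of 29 HOX genes, which set position along the body axis, 4 were bright, 6 moderate and 19 at background; the bright ones were HOXC4, HOXC6, HOXD8 and HOXD10. HOXC6 read 10.80, 10.76 and 10.83, and HOXD8 10.30, 10.30 and 10.32. Every moderate HOX gene also belonged to the C or D cluster. Of 9 PAX genes, PAX5, the B cell factor, was bright (9.95, 9.74 and 9.67), and the other 8 were at background. PAX5 had 10 probe sets, and the 9 others were all at background (4.33 to 6.70), so its class rests on a single probe set. All 12 NKX genes were at background. Of the 10 LHX and ISL genes ISL1 alone was above background, and of the 5 TFAP2 genes TFAP2B alone. ID1, ID2 and ID3, inhibitors of basic helix-loop-helix factors and targets of BMP signalling, were bright (12.18 ± 0.19, 11.50 ± 0.40 and 10.91 ± 0.26), each lowest in replicate 1 and highest in replicate 3. TBX3 behaved the same way (9.66, 9.99 and 10.68), though 3 of its other probe sets were at background and 2 moderate. This order of arrays was found in 24.0% of all genes above background.

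No E2F gene was at background by its mean: 3 of 8 were bright and 5 moderate, with E2F5 at 10.88 ± 0.10 and E2F3 at 10.15 ± 0.09. E2F1 (7.18, 7.21 and 7.52) lay at background in replicate 1 and was not called either way by limma. The family holds activators and repressors of cell cycle genes. Among 38 nuclear receptors, 4 were bright, 15 moderate and 19 at background, so 50% lay above background, near the 52.1% of all genes. ESRRG, an orphan receptor of oxidative metabolism, read 11.39, 11.20 and 11.33, and THRA, a thyroid hormone receptor, 9.67, 9.85 and 9.77. Of 41 forkhead genes 6 were bright (14.6%, against 25% of all genes), FOXO3 at 10.57 ± 0.08 and FOXP1 at 10.73 ± 0.13 among them. No IRF or STAT gene was bright, and 7 of 13 were moderate, with STAT3 at 8.96 ± 0.06. The share above background, 53.8%, was near that of all genes.

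Most oncogene transcripts were above background (89.7%, against 52.1% of all genes). Of 29 analysed, 16 were bright (55.2%, against 25% of all genes), 10 moderate and 3 at background. The limma test called 26 above the cutoff, as it did 50.2% of all genes. MYC read 11.48, 11.25 and 11.07 and was bright in each array. MYCN, its relative and the amplified gene of high-risk neuroblastoma, was moderate at 8.98, 8.95 and 8.80, and its 3 other probe sets lay between 6.01 and 7.85. ALK was moderate, just under the bright cutoff, at 9.16, 9.16 and 9.31. LIN28B, which blocks let-7 microRNA maturation, was bright (9.41, 9.86 and 9.78). Its paralogue LIN28A lay at background.

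Several cell cycle genes of this list were bright. CDK6 and CDK4, the kinases of G1 phase, were bright (12.75 ± 0.10 and 11.50 ± 0.05). CCND1, their cyclin partner, read 11.03, 11.44 and 11.65. CCND2 was at background (4.39 ± 0.15) and CCND3 moderate (7.55 ± 0.12). AURKA, a mitotic kinase that stabilises MYCN protein, was bright (10.41 ± 0.19), and so were BIRC5, survivin (11.31 ± 0.21), and EZH2, the H3K27 methyltransferase (9.90 ± 0.26). Each of these had its lowest value in replicate 1, as did 39.2% of all genes above background. Of the survival factors MCL1 was bright (11.77 ± 0.10) and BCL2 moderate (7.60 ± 0.30). TERT, telomerase, was at background (6.48 ± 0.04). PTPN11 and HRAS of the RAS pathway were bright by their means (10.46 ± 0.10 and 9.38 ± 0.12), HRAS in 1 array only.

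**Figure D4:**
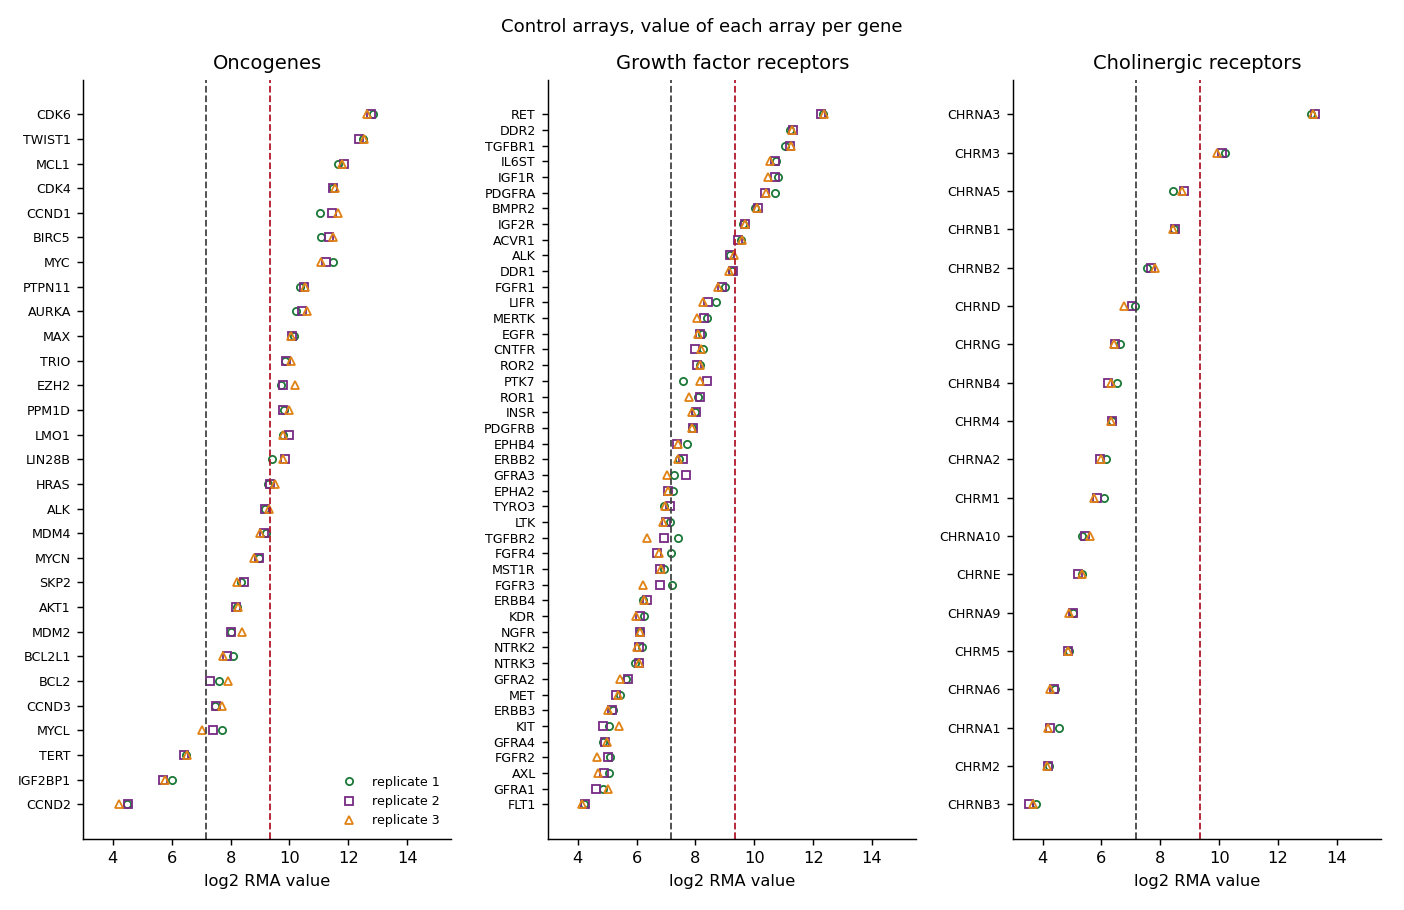
Log2 RMA value of each control array (symbols, replicates 1 to 3) for oncogenes, growth factor receptors and cholinergic receptors, with the background (grey, 7.16) and bright (red, 9.35) cutoffs. MYC lies right of the red line, while MYCN and ALK lie between the lines. RET and CHRNA3 lie far right of both lines, and the neurotrophin receptors NTRK2, NTRK3 and NGFR lie left of the grey line.

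Among 21 tumour suppressor genes 10 were bright (47.6%, against 25% of all genes), 6 moderate and 5 at background. CDKN1C, an imprinted inhibitor of cyclin-dependent kinases, read 12.72, 12.67 and 12.57. CDKN1B and CDKN1A of the same family were bright (10.87 ± 0.04 and 10.63 ± 0.14), CDKN2A moderate (8.53 ± 0.29) and CDKN2B at background (4.36 ± 0.08). CAMTA1 and KIF1B, genes of the short arm of chromosome 1, a region often lost in neuroblastoma, were bright (12.22 ± 0.05 and 10.67 ± 0.04), and CHD5 of the same arm was at background (6.50 ± 0.17). CASP8, an apoptosis enzyme often silenced in neuroblastoma, was at background (5.73 ± 0.14). ATRX, ARID1A and ARID1B, chromatin remodelling genes, were bright. NF1, the RAS inhibitor, was moderate (8.76 ± 0.11), with 17 of its other probe sets at background.

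Of 45 growth factor receptors 9 were bright (20%), 15 moderate and 21 at background, shares near those of all genes (25%, 27.1% and 47.9%). RET, the signalling receptor for the GDNF family, read 12.33, 12.26 and 12.37. Of its co-receptors, GFRA3 was near the cutoff and not called (7.27, 7.67 and 7.04), and GFRA1, GFRA2 and GFRA4 lay at background (4.84 ± 0.21, 5.60 ± 0.16 and 4.93 ± 0.07). NTRK2 and NTRK3, the receptors for BDNF and neurotrophin-3, and NGFR, the shared low-affinity receptor, lay at background (6.10 ± 0.08, 6.03 ± 0.07 and 6.11 ± 0.00). IGF1R, a growth and survival receptor, read 10.80, 10.69 and 10.46, and DDR2, a collagen receptor, 11.21, 11.31 and 11.27; both were bright in each array. TGFBR1 was bright (11.17 ± 0.10), whereas TGFBR2, the partner that activates it, was at background by its mean with 1 array above (6.89 ± 0.53). EGFR (8.15 ± 0.08), FGFR1 (8.89 ± 0.11) and INSR (7.95 ± 0.07) were moderate. KIT (5.11 ± 0.28), MET (5.36 ± 0.06) and FGFR2 (4.92 ± 0.23) were at background.

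Of 30 ligand genes 5 were bright (16.7%, against 25% of all genes), 4 moderate and 21 at background. Thus 30% lay above background, against 52.1% of all genes. VEGFA, the main angiogenic factor, read 13.00, 12.93 and 12.73. MDK and PTN, midkine and pleiotrophin, heparin-binding growth factors of the developing nervous system, were bright (10.92 ± 0.17 and 10.04 ± 0.14). HGF, the ligand of MET, was bright by its mean (9.91, 9.90 and 9.27), while MET itself was at background. ALKAL1 and ALKAL2, the ligands of ALK, lay at background (4.38 ± 0.15 and 4.63 ± 0.16). NRTN, a ligand of the RET pathway, was moderate (7.88 ± 0.15), and BDNF was not called either way (7.01 ± 0.23). KITLG, the ligand of KIT, was moderate (8.67 ± 0.28).

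Transmitter receptors were at background in large part, where 47.9% of all genes lay. Of 26 adrenergic, dopamine, serotonin and histamine receptors, 24 were at background; ADRA2C, an inhibitory adrenergic autoreceptor, was bright by its mean (9.49, 9.38 and 9.31), and HRH3 lay at the cutoff (7.17 ± 0.01) and was not called. Among 19 cholinergic receptor genes 2 were bright, 3 moderate and 14 at background. CHRNA3, the main nicotinic subunit of autonomic ganglia, read 13.14, 13.27 and 13.18. Its ganglionic partners differed: CHRNA5 was moderate (8.65 ± 0.20) and CHRNB2 moderate (7.69 ± 0.15), while CHRNB4 was at background (6.35 ± 0.16). CHRM3, the muscarinic receptor coupled to phospholipase C, was bright (10.20, 10.10 and 9.94), and CHRM1, CHRM2, CHRM4 and CHRM5 were at background.

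No glutamate receptor was bright (0 of 23), and 5 were moderate, with GRIA2 at 8.48 ± 0.12 and GRIN1, the obligate NMDA receptor subunit, at 7.79 ± 0.15. GRIN2A and GRIN2B, which complete that receptor, lay at background (4.75 ± 0.14 and 4.78 ± 0.07). Of 41 peptide, purine and lipid receptors 2 were bright (4.9%, against 25% of all genes). CXCR4, the chemokine receptor of migrating crest cells, read 11.52, 11.21 and 11.62, and RAMP1, an accessory subunit of calcitonin-type receptors, 10.84, 10.78 and 10.68, while CALCRL, its partner for CGRP, lay at background (5.40 ± 0.10). ADCYAP1R1, the PACAP receptor, was moderate (8.91 ± 0.05). For the bright peptides GAL and NPY, the receptors GALR1, GALR2, GALR3, NPY1R and NPY5R were at background, and NPY2R lay just above the cutoff (7.16, 7.47 and 7.56). Among 12 sodium channel genes SCN3A, a channel of developing neurons, was bright by its mean (9.32, 9.53 and 9.38), and SCN2A, SCN8A and SCN1A were at background.

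SH-SY5Y cells are often differentiated with retinoic acid, and retinoid genes were listed for this reason. The receptors RARA, RARB and RARG were moderate (9.21 ± 0.18, 8.60 ± 0.05 and 8.51 ± 0.12), as were RXRA and RXRB (8.02 ± 0.06 and 8.11 ± 0.04), and RXRG was at background (5.17 ± 0.06). ALDH1A3, a retinoic acid-making enzyme, read 10.19, 10.35 and 10.14 and was bright, but its 3 other probe sets were all at background; ALDH1A1 and ALDH1A2 lay at background. CYP26A1, the induced enzyme that degrades retinoic acid, lay at background (4.59 ± 0.10) in these cells. STRA6, the retinol uptake receptor, was bright (9.80, 9.71 and 9.96).

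Surface antigens studied as targets in neuroblastoma were bright in part. Of 18, 8 were bright (44.4%, against 25% of all genes), 5 moderate and 5 at background. DLK1, a non-canonical Notch ligand of chromaffin cells, read 14.78, 14.83 and 14.82, CD24 12.87, 12.86 and 12.82, and NCAM1 (CD56) 11.27, 11.30 and 11.46. For GD2, a glycolipid, the transcripts of its synthases are the only readout: ST3GAL5 was bright by its mean (9.41 ± 0.16), B4GALNT1 moderate (7.83 ± 0.12), and ST8SIA1, which makes the precursor GD3, at background (3.66 ± 0.12). GPC2 (8.83 ± 0.24) and CD276, B7-H3 (8.44 ± 0.19), were moderate, and PROM1 and FOLH1 lay at background. Of 15 antigen presentation genes 3 were bright (20%, against 25% of all genes). B2M, the light chain of class I molecules, read 12.81, 12.72 and 12.77, but HLA-B and HLA-C were moderate (8.28 ± 0.16 and 8.68 ± 0.15), and the peptide transporter TAP1 and the regulator NLRC5 lay at background (5.47 ± 0.22 and 5.56 ± 0.26). CALR, calreticulin, a chaperone made in most cells, also lay at background (6.15 ± 0.30), so that a background value does not show that a transcript is absent.

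Ribosomal and translation genes filled the top of the range. The 12 genes with the highest means, between 14.98 and 15.22, were 10 ribosomal protein genes (RPL32, RPS2, RPL37A, RPL41, RPL23A, RPS7, RPL13, RPS21, RPL22 and RPL13A), TPT1 and the elongation factor EEF1A1. Of the cell maintenance genes 14 of 16 were bright, GAPDH at 14.52 ± 0.02 and ACTB at 12.39 ± 0.12, and TBP and POLR2A were moderate. The 10 genes above background with the largest SD were NELL2, VIP, GRIP1, USP18, CARTPT, EGR1, NEFM, EXD3, GPC3 and HIRA. NELL2, a secreted neuronal protein, read 6.69, 8.15 and 8.70, lowest in replicate 1, and EGR1, an immediate early gene, 7.33, 8.69 and 7.82. GRIP1 (8.62, 8.44 and 6.91), USP18 (7.97, 7.76 and 6.65) and GPC3 (8.11, 7.67 and 6.93) were lowest in replicate 3, so the arrays did not differ in 1 direction.

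Probe sets of one gene often disagreed. Of the 3635 bright genes with several probe sets, 1746 (48.0%) had another at background, and of 3737 such moderate genes 3056 (81.8%) did. Among the 111 bright list members with several probe sets, 51 had another at background and 14 had all others there. PTPN11, DDC, TGFBR1, PDGFRA, ARID1A and SCN3A were of this last kind, so their class rests on a single probe set. STMN2, by contrast, had 3 other probe sets between 13.63 and 13.82, RGS5 3 between 14.14 and 14.57, and HAND2 1 at 10.05. Taking the highest probe set gives genes with more probe sets more chances of a high value; bright genes had a median of 3 and background genes of 2.

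Promoters were described by class in the 14494 genes with an entry in the RefSeq table. The ratio of observed to expected CpG had a median of 0.87 in bright, 0.84 in moderate and 0.50 in background genes, and 89.9%, 83.5% and 44.2% of promoters exceeded 0.6. The letters TATAAA on either strand were found in 5.42% of bright, 4.79% of moderate and 14.3% of background promoters, and CACGTG, an E-box bound by MYC and MAX, in 10.9%, 10.1% and 6.72%. TGACGTCA and CACGTG both hold a CpG, and no correction for base composition was made. The signal of the background probe sets rose with their G and C bases. Base composition of the genes' own probes was not measured, and its part in the differences between classes was not tested.

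**Figure D5:**
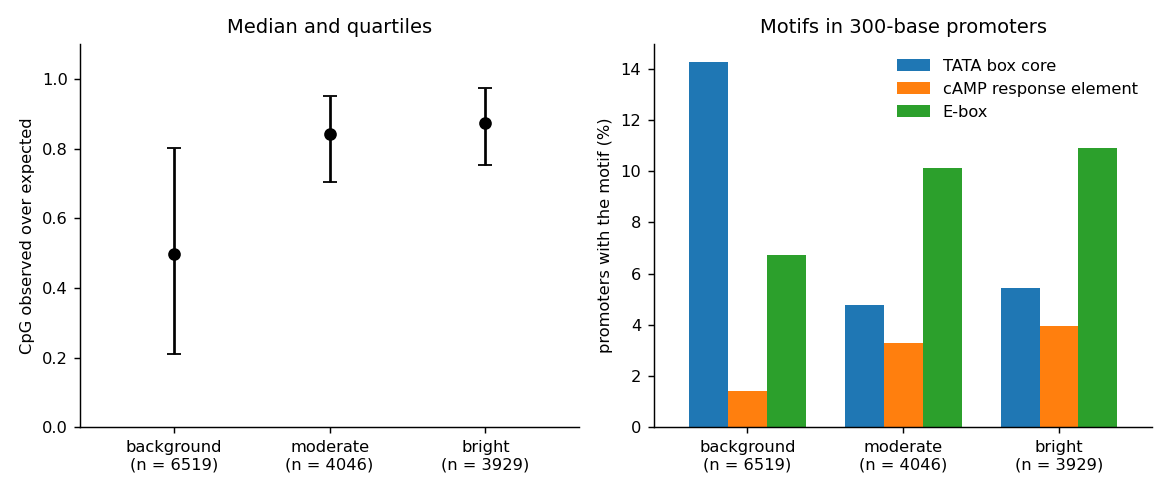
Left, median (points) and quartiles (bars) of the ratio of observed to expected CpG in 300-base promoters of background (n = 6519), moderate (n = 4046) and bright (n = 3929) genes. Right, the percentage of these promoters with the TATA box core, the cAMP response element or the E-box on either strand, spelled out in the text. The TATA box core is most frequent in background promoters (14.3%), the other motifs in bright ones (3.95% and 10.9%).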

How the data were processed

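Values were used as the authors deposited them, in log2 units per probe set; RMA in R 3.0.1 is named in the submitters' processing notes. RMA corrects background, makes array distributions alike and summarises probes. Of 49495 probe sets, 102 were controls; 45278 had 1 gene symbol in the platform annotation and were used, 1333 had several and 2782 none. RefSeq (GRCh38.p14) matched 45208 of them and changed 0 symbols. Of 619 listed genes, 571 were analysed here. The test used limma 3.58.1 (lmFit, eBayes, intercept only, two-sided; R 4.3.3) on each value minus its array's background cutoff, and was tested on simulated data. Arrays and lists were chosen with earlier results of these data known. Named genes are the highest members of each list, those nearest the background cutoff, background markers of other lineages, the 12 highest genes, the 10 with the largest SD, and genes with discordant probe sets; transcription factor family members, promoters shown and other members were picked after their values were seen. Alternatives were other background percentiles, olfactory receptors alone, the mean of all probe sets, no _x_at or _s_at probe sets, a higher bright cutoff, all 6 arrays, quantile normalization, and each array left out.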

Additional observations from a re-analysis of the deposited data

How the results depend on the processing

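Of 571 listed genes, 101 changed class with the mean of all probe sets, 91 with background at the 99th and 73 at the 90th percentile, 79 with olfactory receptors as the only reference, 51 with the higher bright cutoff and 80 of 527 without _x_at and _s_at probe sets. At the 99th percentile of the reference genes, limma called 5494 genes above background in place of 9166, and 166 listed genes lay above it in place of 257; the numbers above it were 0 of 13 glial, 6 of 28 mesenchymal, 0 of 16 immune genes and 12 of 45 growth factor receptors, from 2, 13, 2 and 24. At the 90th percentile, and with olfactory receptors alone, 6 immune genes lay above it. With the mean of all probe sets, these lists had 1, 8, 0 and 11 members above background. Bright from the 90th percentile left 1825 bright genes (4561 before) and 88 bright listed genes (139 before). In every alternative in which they had a value (11, or 10 for genes with no probe set left without _x_at and _s_at), 127 of 139 bright listed genes stayed above background, 22 of 118 moderate genes did, and 235 of 314 background genes stayed at background. With all 6 arrays 2 listed genes changed class, with quantile normalization 0, and with an array left out 7 to 9. The limma call of 27 of 571 listed genes changed when some array was left out: 8 called above and 12 called below lost their call, and 7 gained one. Among the former were NEFH without replicate 3, SCN9A without replicate 1 or 2, and NOTCH3 and NPY2R without replicate 2 or 3; GFRA3 gained one without replicate 3 and GFAP, SNAI2 and SOX2 without replicate 1. TH, MYCN and ALK were moderate at 8.30, 8.91 and 9.21; the cutoff at the 99th percentile was 8.62, so TH fell to background there. No paired analysis was possible because a single group of 3 arrays was described and each replicate number holds 1 of them. A signal near the cutoff, in a probe rich in G and C, limits what a moderate value shows.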
